A study of Homo sapiens with 6 samples.

Results

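Metallothioneins are small proteins that hold zinc, copper and cadmium in clusters of cysteine thiolates, and their genes lie side by side on chromosome 16. The 8 metallothionein genes MT1A, MT1E, MT1F, MT1G, MT1H, MT1M, MT1X and MT2A were chosen by gene symbol, with earlier results of these data known but by no threshold on a measured value, out of 27942 genes in the deposited count table. All 8 had a row in the table. Of these, 4 (MT2A, MT1E, MT1X and MT1F) had counts in every library and passed the filter on low counts, and 4 (MT1A, MT1G, MT1H and MT1M) had 0 counts in every library. HCT116, a widely used cell line from a human colorectal carcinoma, was exposed to the platinum drug oxaliplatin at 0.5 µM over 24 h (OXA, 3 libraries) or left untreated (NT, 3 libraries). All cells grew in RPMI medium with serum, to which the sample labels add antibiotics whereas the study's methods state that none were used. Libraries were made from polyadenylated RNA, and no label says whether replicates were separate cultures, so that p-values measure the spread between these libraries, which may be technical. Library totals lay between 32979521 and 40967880 counts.

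Cells transcribe the MT1 and MT2A genes on contact with zinc or cadmium. The zinc-sensing factor MTF1 then binds short metal response elements in their promoters, and the same factor acts on SLC30A1, which encodes the zinc exporter ZnT1 of the plasma membrane. Glucocorticoids and oxidative stress are also known inducers. Platinum drugs bind the thiol groups of metallothioneins, for which reason the family is often examined in tumor cells exposed to these drugs. MT3 is best known from brain and MT4 from stratified epithelium.

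The 8 genes spread over 75.6 kb of chromosome 16 (56608584 to 56684196 on GRCh38, GENCODE release 44). MT2A was the first (ENSG00000125148, 56608584 to 56609497), followed by MT1E (ENSG00000169715, 56625475 to 56627112), MT1M, MT1A, MT1F (ENSG00000198417, 56657731 to 56660698), MT1G, MT1H and MT1X (ENSG00000187193, 56682470 to 56684196). MT1G (56666730 to 56668065) was the only one of the 8 on the minus strand. Their canonical transcripts were short, between 396 and 425 nt in 7 genes and 746 nt in MT1E, against a median of 3261 nt over all genes tested. Because the family arose by duplication, reads might be shared between members. No stretch of 100 nt, the read length, in the canonical transcripts of MT2A, MT1E, MT1F, MT1A, MT1G or MT1M was found in a transcript of another gene. In MT1X 22% of such stretches were also found in a transcript of another gene, the overlapping long noncoding RNA ENSG00000259827, and in MT1H 3.36% were found in the single-exon gene MT1HL1. How the authors' counting divided such reads was not stated.

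RefSeq promoter windows (GRCh38.p14, 300 bases of which the last 50 follow the transcription start) were at hand for 3 of the 8 genes, MT2A, MT1X and MT1H. They are shown because 2 of them belong to genes with counts and 1 to a gene without any, and because they carry the motif through which metals act on this family. The windows are chr16:56608334-56608633 for MT2A, chr16:56682220-56682519 for MT1X and chr16:56669564-56669863 for MT1H, all on the plus strand. Capitals mark each match to the core of the metal response element, searched as TGCACNC and TGCGCNC on both strands, and no match overlapped another.
MT2A: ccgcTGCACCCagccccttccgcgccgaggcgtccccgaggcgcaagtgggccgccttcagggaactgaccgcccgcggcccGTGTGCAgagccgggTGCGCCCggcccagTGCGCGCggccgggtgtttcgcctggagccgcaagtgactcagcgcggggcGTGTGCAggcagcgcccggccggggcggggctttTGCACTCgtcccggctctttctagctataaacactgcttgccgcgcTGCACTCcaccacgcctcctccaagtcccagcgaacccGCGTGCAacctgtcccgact
MT1X: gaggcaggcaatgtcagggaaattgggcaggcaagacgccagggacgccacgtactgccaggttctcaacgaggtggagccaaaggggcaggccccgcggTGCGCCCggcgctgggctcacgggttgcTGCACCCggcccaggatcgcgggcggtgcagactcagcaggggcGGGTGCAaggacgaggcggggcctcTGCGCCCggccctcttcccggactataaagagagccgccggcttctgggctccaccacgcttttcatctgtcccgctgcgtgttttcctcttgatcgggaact
MT1H: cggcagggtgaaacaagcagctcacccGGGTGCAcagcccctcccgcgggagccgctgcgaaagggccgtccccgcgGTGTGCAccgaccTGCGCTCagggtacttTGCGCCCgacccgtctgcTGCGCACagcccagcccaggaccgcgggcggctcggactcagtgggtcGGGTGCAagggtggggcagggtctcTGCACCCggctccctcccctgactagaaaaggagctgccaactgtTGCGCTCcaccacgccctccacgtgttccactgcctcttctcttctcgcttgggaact

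The MT2A window held 8 matches, 5 on the plus and 3 on the minus strand, and the MT1H window also held 8. MT1X had 4. Among 35116 RefSeq windows of the same length, 29.6% held at least 1 match, 0.601% at least 4 and 0.0199% at least 8. In all 3 windows a plus-strand match began 53 or 54 bases before the start, and in MT2A and MT1H another began 8 bases before it. MT2A and MT1X had the letters TATAAA 29 and 30 bases before the start, a sequence found in 11.5% of all windows, and the MT1H window did not contain them. The core of the antioxidant response element, searched as TGACNNNGC, occurred in MT2A and MT1X and in 13.3% of all windows. These are matches of letters and not measured binding sites. MT1H thus had as many matches as MT2A, and 0 counts.

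**Figure D1:**
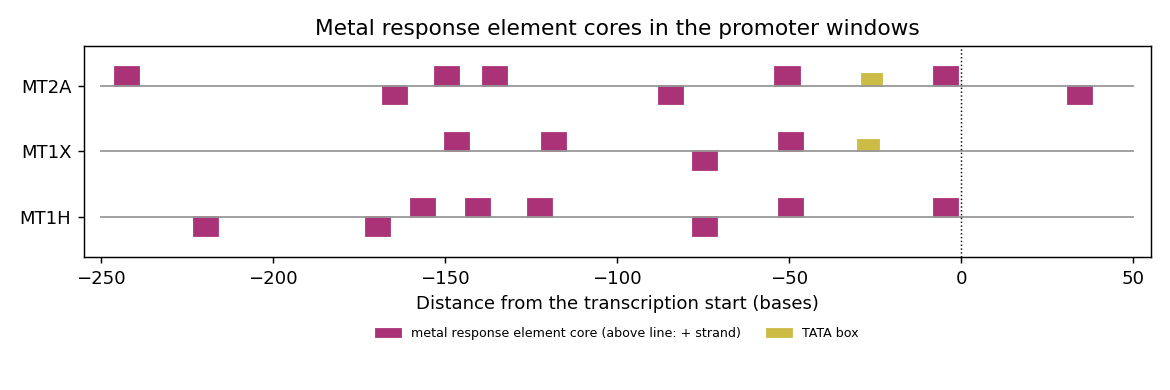
Positions of metal response element cores (purple) and of TATA boxes (yellow) in the promoter windows of MT2A, MT1X and MT1H, by distance from the transcription start in bases, with plus-strand matches above and minus-strand matches below each line. MT2A and MT1H hold 8 cores each and MT1X holds 4.

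MT2A and MT1E provided most of the metallothionein transcripts of HCT116 cells, in untreated as in treated cells. Levels of different genes were compared as CPM (the count scaled by the TMM-adjusted library total in the usual way) per kilobase of canonical transcript. On this scale MT2A came to 207 ± 100 (mean ± SD, n = 3) in NT, with 100, 299 and 221 in libraries 1 to 3. MT1E had 76.7, 118 and 100, or 98.2 ± 20.6 on average. The order MT2A over MT1E was found in each of the 6 libraries, although the NT ranges of both genes overlapped. In bulk RNA, fewer cells with a transcript and less RNA per cell cannot be told apart. MT1X followed with 27.1 ± 12.3 and MT1F was the lowest of the expressed members with 3.80 ± 0.920, and the ranges of these 2 genes overlapped neither with each other nor with those above. In OXA the order was the same, with 350 ± 128 for MT2A, 199 ± 29.8 for MT1E, 37.9 ± 6.96 for MT1X and 3.25 ± 0.713 for MT1F.

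The order of MT2A and MT1E rested on the transcript assumed for MT1E. GENCODE lists protein-coding MT1E transcripts of 332, 704 and 746 nt. With 746 or 704 nt, MT1E was below MT2A in all 6 libraries, whereas with 332 nt it was above MT2A in 5 of 6, the exception being NT library 2. The factor by which the authors' normalized values differed from the raw counts also moved most for this gene, from 0.753 in OXA library 3 to 1.39 in NT library 1, where the median gene went from 0.890 to 1.09. For MT2A the factor ranged from 0.893 to 1.08.

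MT1A, MT1G, MT1H and MT1M were not detected. Each had 0 counts in all 6 libraries, which at these depths allows, by counting error only, up to 0.0732 to 0.091 CPM in a library. MT1F, the lowest expressed member, had 39 to 71 counts in a library. MT1B, MT3, MT4 and MT1HL1, the other genes of the family with a row in the table, were also at 0 throughout. The detected and undetected genes alternated along the cluster, as the plot of levels along the chromosome shows. Among the 8 genes MT1F lay between MT1A and MT1G, both at 0, and MT1X followed MT1H. Since no count was gained in OXA, no induction of the 4 undetected members was detectable at this depth.

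**Figure D2:**
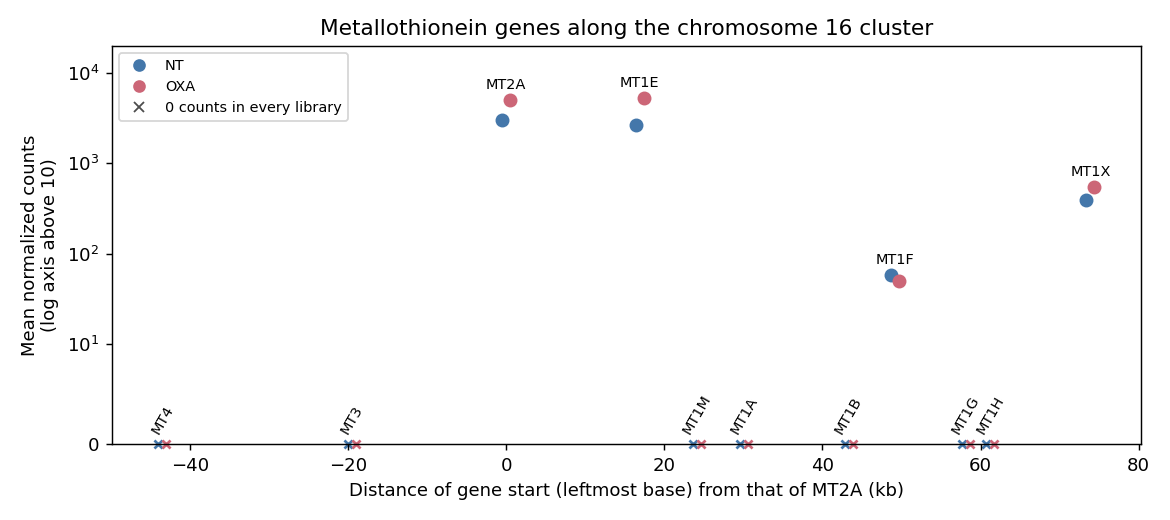
Mean normalized counts (n = 3 libraries; axis logarithmic above 10) of metallothionein genes in NT (blue) and OXA (red), by the distance in kb of each gene from MT2A, with crosses for genes at 0 counts in every library and paired points set slightly apart sideways. The expressed genes MT2A, MT1E, MT1F and MT1X are interspersed with genes at 0.

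The comparison of OXA with NT asked which transcripts respond to 24 h of oxaliplatin at its IC50. MT1E, a broadly expressed MT1 isoform, rose about 2-fold. Normalized counts, which are raw counts scaled by 1 TMM factor per library, were 2060, 3161 and 2683 in NT libraries 1 to 3 and 4704, 6235 and 5076 in OXA libraries 1 to 3. The groups did not overlap, with the lowest OXA value above the highest NT value. MT1E rose by 2.03-fold (95% interval 1.53 to 2.68, edgeR quasi-likelihood adjusted p = 0.021 over all genes tested), a log2 fold change of 1.02 ± 0.17 (SE). MT1E was the single member of the 4 tested with an adjusted p under 0.05. Among all 13727 genes tested 5.07% passed this threshold in either direction and 2.78% passed it as higher, and 14.5% had every OXA library above every NT library. The call was kept without NT library 1 or 2 and lost without NT library 3 or any 1 of the 3 OXA libraries, with an edgeR adjusted p up to 0.0871 and a log2 fold change between 0.87 and 1.14. These fits did not pair the libraries by replicate number. Over all genes 381 were called higher with all libraries, and 623, 153 and 115 without NT library 1, 2 or 3. Without OXA library 1, 2 or 3 the number was 66, 94 or 102.

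MT2A, the isoform usually most abundant in human cells, was higher in OXA on average but differed more between libraries than between groups. It had 1450, 4313 and 3195 normalized counts in NT and 3405, 7041 and 4700 in OXA. The groups overlapped, since OXA library 1 was below NT library 2. The means were 2986 ± 1443 and 5049 ± 1843 (fold change 1.69, 95% interval 0.893 to 3.20, edgeR adjusted p = 0.323). Within each pair of libraries with the same number, OXA was above NT, by 2.35-fold for libraries 1, 1.63-fold for libraries 2 and 1.47-fold for libraries 3. Among all genes tested 33.8% were above NT in all 3 pairs.

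Same-numbered libraries deviated together across all genes, so the replicate number was also fitted as a block. With the block MT2A rose by 1.77-fold (log2 fold change 0.82, 95% interval 0.51 to 1.14, edgeR adjusted p = 0.0112) and MT1E by 2.04-fold (edgeR adjusted p = 0.00136). With this fit 12.1% of all genes were called higher, against 2 of the 4 tested members. After a further correction of every library for the length and base composition of transcripts, MT2A rose by 1.45-fold (log2 fold change 0.53, edgeR adjusted p = 0.000192), and MT1E by 1.82-fold (edgeR adjusted p = 9.96e-07). That fit called 23.4% of all genes higher.

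**Figure D3:**
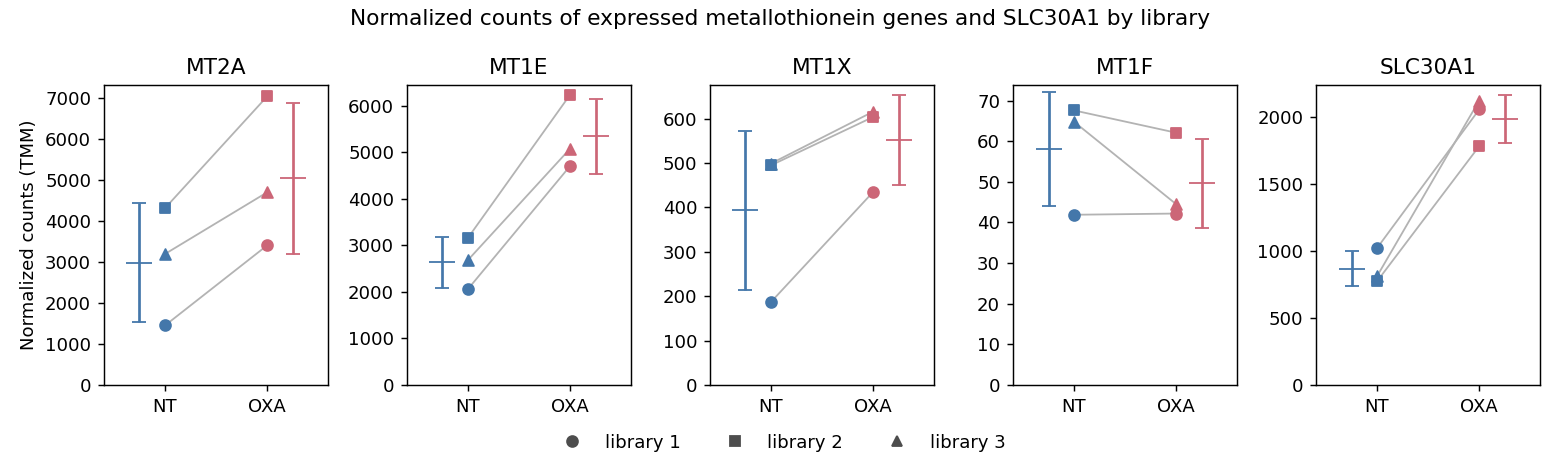
Normalized counts of MT2A, MT1E, MT1X, MT1F and SLC30A1 in each library of NT (blue) and OXA (red), with grey lines between same-numbered libraries and bars for mean ± SD (n = 3). The groups are apart in MT1E and SLC30A1, whereas in MT2A and MT1X they overlap although each line goes up.

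MT1X, another widely expressed isoform, had 187, 495 and 499 normalized counts in NT and 435, 604 and 616 in OXA. OXA library 1 was below NT libraries 2 and 3, so the groups overlapped, while OXA exceeded NT in each pair by 2.33, 1.22 and 1.23-fold. The difference passed the threshold neither without the block (fold change 1.40, 95% interval 0.798 to 2.46, edgeR adjusted p = 0.479) nor with it (1.49-fold, edgeR adjusted p = 0.0842). Without NT library 1 the log2 fold change of MT1X was 0.15, against 0.49 with all libraries. For MT2A it was 0.43 without this library and 0.44 without OXA library 2, against 0.76 with all.

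MT1F was the expressed member without a higher mean in OXA. Raw counts were 41, 65 and 71 in NT and 39, 57 and 50 in OXA, which gave 58.1 ± 14.1 and 49.6 ± 10.9 normalized counts. The groups overlapped (fold change 0.853, 95% interval 0.549 to 1.33, edgeR adjusted p = 0.687), and the block did not change this (edgeR adjusted p = 0.444). The 41 counts of NT library 1 had an exact Poisson 95% interval from 29.4 to 55.6, which covers counting error only. With GC content, length and the block fitted, the log2 fold change was -0.45 (95% interval -0.89 to -0.01, edgeR adjusted p = 0.0895).

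**Figure D4:**
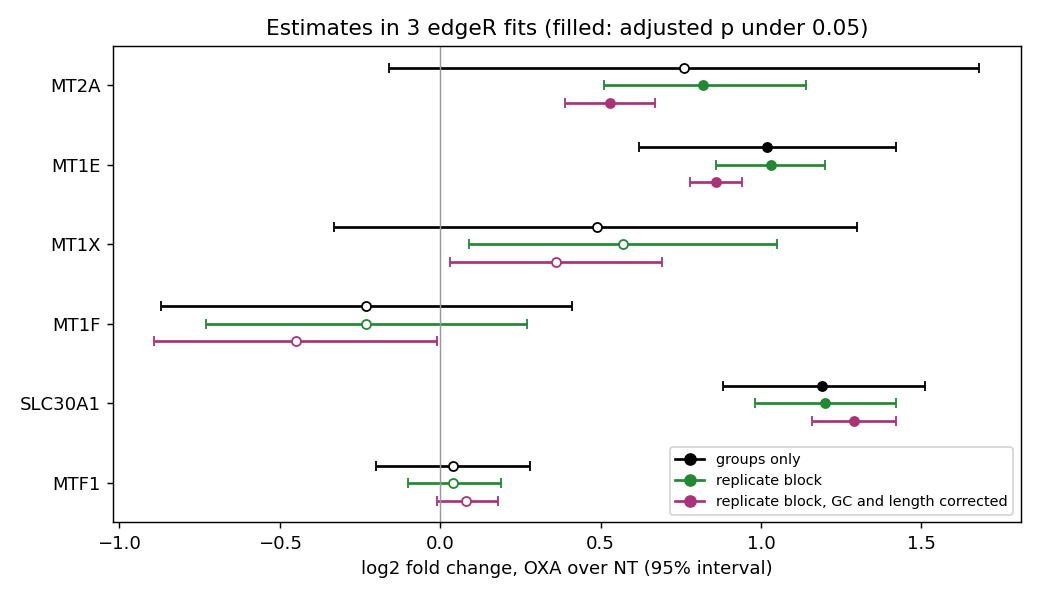
Log2 fold changes of OXA over NT with 95% intervals in 3 edgeR fits (black, groups only; green, with the replicate block; purple, with the block and a correction for GC content and length), filled where the adjusted p is under 0.05. MT1E and SLC30A1 are filled in all 3 fits, MT2A in the 2 fits with the block, and MT1X, MT1F and MTF1 in none.

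Ratios of members within a library do not depend on the scaling of that library. There were 49.1, 46.8 and 41.4 raw counts of MT1E per count of MT1F in NT and 111, 100 and 114 in OXA. The ratio of MT2A to MT1F went from 34.6, 63.8 and 49.3 to 80.7, 113 and 106. For MT1X to MT1F the values were 4.46, 7.32 and 7.70 in NT and 10.3, 9.72 and 13.8 in OXA. All 3 ratios to MT1F were thus higher in every OXA library than in any NT library. They share MT1F, the expressed member with the fewest counts, as denominator and are not separate results. Each had a two-sided exact permutation p of 0.1, which is the smallest that 3 against 3 libraries can give and cannot reach 0.05, and 0.2 after adjustment over 6 ratios. The ratios among MT1E, MT2A and MT1X overlapped between the groups, with MT1E over MT2A at 1.42, 0.733 and 0.840 in NT and 1.38, 0.886 and 1.08 in OXA (exact permutation p = 0.6). The share of MT1F in the summed level of the family per kilobase, which restates the same counts, was 1.19 ± 0.226% in NT and 0.557 ± 0.0558% in OXA. MT2A held 59.8 ± 6.95% and 58.3 ± 5.28%.

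Summed over the expressed members, metallothioneins took 105, 227 and 181 CPM of the NT library totals and 232, 388 and 286 of the OXA library totals. The lowest OXA value was above the highest NT value by little. Normalized, the sum was 6072 ± 2173 in NT and 10989 ± 2721 in OXA, and it was higher in OXA by 2.30, 1.73 and 1.62-fold in pairs 1 to 3. No test was made on the sum.

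With TMM scaling, NT library 1 was the lowest NT library in all 4 expressed members. With the authors' normalization it was the lowest in MT2A, MT1X and MT1F but not in MT1E, which had values of 2798, 2781 and 2350 in NT libraries 1 to 3 and a range of 1.19-fold. Within NT, the highest library exceeded the lowest by 2.98-fold in MT2A and 2.67-fold in MT1X. Ranges at least this wide were found in 2.38% and 3.65% of the 12066 genes with a mean of at least 50 normalized counts, whose median range was 1.26-fold. With TMM scaling MT1E, with 1.53-fold, and MT1F, with 1.61-fold, were less wide, and 22.8% and 19.6% of genes reached their ranges. In OXA, where library 1 was again the lowest, MT2A ranged over 2.07-fold, which 1.33% of genes reached.

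The genes around the family were read from lists of zinc, copper, oxidative stress and glucocorticoid genes, which were also drawn up with earlier results of these data known. SLC30A1, the zinc exporter gene that is a classic target of MTF1, also rose. It had 1022, 774 and 812 normalized counts in NT and 2057, 1783 and 2124 in OXA. All OXA libraries were far above all NT libraries (fold change 2.29, 95% interval 1.84 to 2.85, edgeR adjusted p = 0.00551), a call that held whichever of the 6 libraries was left out. PGF, which encodes placental growth factor and has been described as a target of MTF1, went from 131, 183 and 172 to 372, 432 and 339 (fold change 2.35, edgeR adjusted p = 0.0118) and kept its call in 3 of 6 such fits. It lost it without NT library 3, OXA library 1 or OXA library 2, where the edgeR adjusted p reached 0.0703.

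MTF1 itself did not pass the test, with 1959, 1620 and 1862 normalized counts in NT and 1937, 1754 and 1905 in OXA (log2 fold change 0.04, 95% interval -0.20 to 0.28, edgeR adjusted p = 0.865). The other listed targets were not called either. SLC39A10, an importer gene that MTF1 is known to repress, had a log2 fold change of -0.24 and passed with the replicate block (edgeR adjusted p = 0.0216). Altogether 2 of the 6 genes of this list, which includes MTF1 itself and the repressed SLC39A10, passed as higher and 0 as lower. Among all genes tested 2.78% passed as higher. DESeq2 and limma-voom called 0 lower. At an unadjusted edgeR p under 0.05, which 21.7% of all genes reached in either direction, 2 were higher and 1 lower. The median log2 fold change of the list was 0.00 against 0.02 over all genes.

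Of the SLC30 family of zinc exporters, 8 of 10 genes were tested. SLC30A1 was the single one to pass, where 2.78% of all genes passed as higher. The other 7 had log2 fold changes between -0.40 and 0.00. Of 14 SLC39 zinc importers 11 were tested and 0 passed with edgeR, DESeq2 or limma-voom, with a median log2 fold change of 0.01. At an unadjusted edgeR p under 0.05, 0 were higher and 2 lower, where 21.7% of all genes passed in either direction. With the block SLC39A8 was lower (log2 fold change -0.35, edgeR adjusted p = 0.0186) beside SLC39A10, and SLC39A14 was higher. That fit called 12.1% of all genes higher and 10.9% lower. The calls of SLC39A8 and SLC39A14 were lost when the authors' factors were used with the block (edgeR adjusted p = 0.0863 and 0.125). Of the 11 genes of copper handling, which include the copper and platinum importer SLC31A1 and the exporters ATP7A and ATP7B, 0 passed with edgeR, DESeq2 or limma-voom (1 higher and 1 lower at an unadjusted edgeR p under 0.05). With the block SLC31A1 (log2 fold change -0.25, edgeR adjusted p = 0.0413) and CUTC were lower, of which SLC31A1 lost its call with the authors' factors (edgeR adjusted p = 0.0652).

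Lists of other known inducers of metallothioneins contained no edgeR call without the block. Of 16 targets of the oxidative stress factor NRF2, 2 were higher and 0 lower at an unadjusted edgeR p under 0.05, DESeq2 called 1 (HMOX1) and limma-voom 0, and with the block edgeR called 6 higher and 2 lower, where 12.1% of all genes were called higher and 10.9% lower. With the authors' factors and the block, SRXN1 lost its call as higher (edgeR adjusted p = 0.0778). Among them HMOX1, the heme oxygenase gene, had 643, 813 and 1083 normalized counts in NT and 1074, 1287 and 1459 in OXA (block log2 fold change 0.61, edgeR adjusted p = 0.00838), whereas NQO1 went the other way (block log2 fold change -0.43, edgeR adjusted p = 0.00498). Of 7 tested genes of the glucocorticoid response, 1 was higher and 1 lower at an unadjusted edgeR p under 0.05, and DESeq2 called 1 (FKBP5) and limma-voom 0. FKBP5, a sensitive glucocorticoid target, was lower with the block (log2 fold change -0.45, edgeR adjusted p = 0.00609), and NR3C1, the receptor gene, and ERRFI1 were higher. NR3C1 lost its call with the authors' factors (edgeR adjusted p = 0.199). Across the 7 lists, 2 of 63 tested genes were higher and 0 lower, against 2.78% and 2.29% of all genes with edgeR. DESeq2 called 3 higher and 2 lower, and limma-voom 2 and 0. At an unadjusted edgeR p under 0.05, 7 were higher and 6 lower, where 21.7% of all genes passed in either direction. With the block 13 were higher and 9 lower, against 12.1% and 10.9% of all genes, and with the authors' factors as well 10 were higher and 6 lower.

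**Figure D5:**
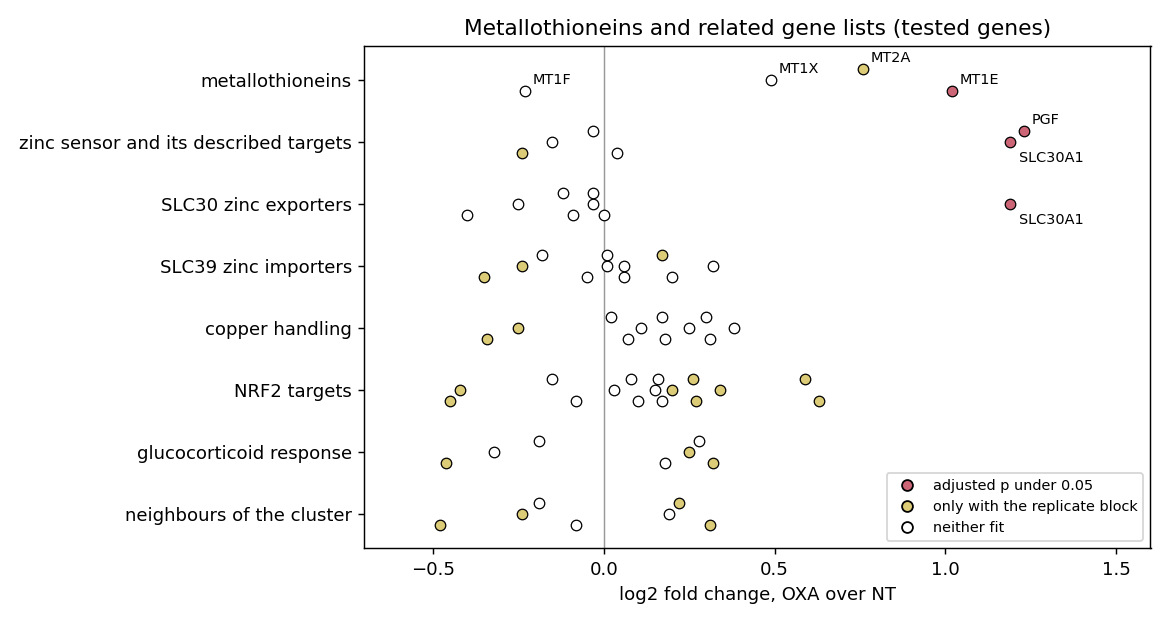
Log2 fold changes of OXA over NT for the tested genes of each list, 1 point per gene (red, adjusted p under 0.05; yellow, under 0.05 only with the replicate block; white, neither). Red points are MT1E, PGF and SLC30A1, and SLC30A1 stands in 2 of the lists.

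Genes that flank the cluster on chromosome 16 were read in the same way. Of 12 neighbours 7 were tested and 0 passed with edgeR or limma-voom, while DESeq2 called NUDT21 lower. At an unadjusted edgeR p under 0.05, 1 was higher and 2 lower, where 21.7% of all genes passed in either direction. The log2 fold changes ran from -0.48 to 0.31 with a median of -0.08. With the block NUDT21 (log2 fold change -0.47) and HERPUD1 were lower and OGFOD1 (0.22) and BBS2 (0.31) higher. That fit called 12.1% of all genes higher and 10.9% lower. HERPUD1 lost its call with the authors' factors (edgeR adjusted p = 0.0797). CES1, CES5A, GNAO1, SLC12A3 and CETP were not tested because their counts were near 0.

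The genes most like the family were sought by Pearson's r over the 6 libraries between log2 CPM of a gene and of the summed members, among 12062 genes. The 5 highest were EPN2 (r = 0.999), RHOF, PTK2B, PHPT1 and LMNA (r = 0.995), and in each of them the 6 libraries had the same order as in the family. As the highest of so many genes over 6 libraries that include same-numbered pairs, these values are a description only. Without the block, where 2.78% of all genes passed as higher, none of the 5 passed (edgeR adjusted p between 0.13 and 0.229). Each passed as higher with the block (between 0.0051 and 0.0241), where 12.1% of all genes were called higher. These genes were chosen for following the family sum over the same libraries, and that sum was higher in OXA in each same-numbered pair. Their calls and p-values are therefore not separate evidence of a response to oxaliplatin or of likeness to MT2A. The GC content of their transcripts was 54.2 to 61.5%, against a median of 48.8% over all genes tested. Among the expressed members it was 55.6% for MT2A, 53.2% for MT1E, 52.9% for MT1F and 49.3% for MT1X. Of these members only MT2A lay within the range of the 5 genes. The r values were computed without correction for GC content, and its part in the likeness of the 5 genes to the family was not tested.

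The epithelial origin of the line was read from marker genes. Of 10 epithelial marker genes 8 were above 3 counts, among them EPCAM, KRT8 and KRT18, while CDX1 and LGALS4 were at or near 0. Summed epithelial markers came to 2161 to 3104 CPM in NT and 3512 to 4151 in OXA. With the block, which called 12.1% of all genes higher and 10.9% lower, KRT8, KRT18 and KRT19 were higher in OXA and CDH1 lower. The part of this difference in the metallothionein results was not tested. Fibroblast markers summed to 3.35 to 8.55 CPM and markers of blood and endothelium to 5.48 to 7.04 over all libraries. COL1A1, PDGFRB and COL3A1 were the fibroblast markers above 3 counts, and DCN and LUM were at 0. PTPRC, CD3E and HBB were at or under 3 counts in every library.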

How the data were processed

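Polyadenylated RNA of HCT116 cells was sequenced with a strand-specific kit, in 3 OXA and 3 NT libraries, whose totals are given above. Per the submitters' processing notes, Trimmomatic 0.32, STAR 2.7.5b, RSEM 1.3.3 and DESeq2 2.13 were used with GRCh38. The program that made the raw counts, the gene annotation and the strand setting are not given in the sources used here. The authors deposited raw counts, which were whole numbers, and a normalized signal, which is the raw count times a factor that differs between genes and libraries and was used for alternatives only.

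Raw counts were filtered with filterByExpr (minimum count 10, total 15), which left 13727 genes, scaled by TMM and tested by edgeR's quasi-likelihood test in R 4.3.3 (edgeR 4.0.16), and p-values were adjusted by Benjamini and Hochberg across these genes. DESeq2 1.42.0 and limma 3.58.1 served for alternatives. Standard errors are the log2 fold change divided by the square root of F. The fit without the block was tested on simulated counts that held no replicate effect. The fits with the block or with the GC and length correction were not tested in this way. Deviations of same-numbered NT and OXA libraries from their group means correlated at 0.511, 0.502 and 0.28, and those of other pairs at -0.436 to 0.0832, so the numbers were taken to pair the libraries. They come from the sample labels, which do not say what they stand for.

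Named are the members, other metallothioneins, genes of the lists that passed a fit, MTF1 and SLC30A1, and 5 genes of like pattern. Members and lists were chosen with earlier results of these data known. Alternatives were other scaling factors and filters, DESeq2, limma-voom, the replicate block, a spline correction for GC content and length, and each library left out.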

Additional observations from a re-analysis of the deposited data

How the results depend on the processing

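Upper-quartile or DESeq2 factors, other filters, DESeq2, limma-voom and the authors' factors (the last chosen after seeing the data) left each of MT1E, MT2A, MT1X and MT1F on the same side of the threshold and in the same direction. The replicate block called 2 members higher, as did the block with GC and length correction and the block with authors' factors, in which MT2A had log2 fold changes of 0.82, 0.53 and 0.79 (edgeR adjusted p = 0.0112, 0.000192 and 0.00400). The block changed no other call among the members. Leaving out 1 library gave 0 to 1 members higher, with MT1E at log2 fold changes of 0.87 to 1.14, MT2A at 0.43 to 1.10, MT1X at 0.15 to 0.67 and MT1F at -0.42 to -0.13.

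Over all genes, 381 were higher and 315 lower. The block gave 1664 and 1493, with GC and length correction 3214 and 3038, with authors' factors 1319 and 1167. DESeq2 gave 604 and 571, authors' factors without the block 241 and 200, and upper-quartile factors 348 higher and 493 lower. Leaving out 1 library gave 66 to 623 higher and 19 to 571 lower. Over the lists, against 2 higher and 0 lower, the 3 block fits gave 13, 21 and 10 higher and 9, 16 and 6 lower, DESeq2 2 lower, and upper-quartile factors or no filter on low counts 1 lower each. Leaving out 1 library gave 1 to 2 higher and 0 to 1 lower. MTF1 lay between -0.066 and 0.1 with 1 library left out and changed its sign without NT library 2 (-0.066), without OXA library 3 (-0.0071) and with authors' factors (-0.079, with the block -0.053), never with a call. Without division by length, MT1E took 45.4% of the family in NT and 49.4% in OXA, MT2A 47.3% and 45.1%, MT1X 6.30% and 5.10%, and MT1F 0.455% in OXA. The cause of these changes was not tested. MT1F had the fewest counts of the expressed members, 39 to 71 a library.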
